A study of Rattus norvegicus with 24 samples.

Results

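Tpm3 and Tpm4 are tropomyosin genes, and they were measured as 2 of 4126 named genes, with 2 of 4803 probes, on 2-colour arrays of rat ventricle RNA. Their probes, 1943 for Tpm3 (Entrez gene 117557) and 2513 for Tpm4 (Entrez gene 24852), were found by symbol in the platform annotation of the array, and each had a value on all 24 arrays. The genes were chosen by their array scores, which were higher in the CHF than in the CON right ventricle, so that difference is given as a description with no test. The 24 samples, all labelled day 14, were 6 HYP, 6 CHF and 6 CON right ventricles and 2 left ventricles of each condition, each hybridised with a common reference pool. The title of the series names monocrotaline and hypertrophy with and without compensation. HYP is therefore read as compensated hypertrophy, CHF as failing (decompensated) and CON as control, which the labels do not spell out. Monocrotaline is a plant alkaloid that injures lung vessels and so loads the right ventricle. The sources used here do not give strain, age, sex, dose, the RNA of the pool or any injection of CON. Nothing states that the samples came from separate animals, so p-values measure only how far these samples spread, and that spread may be technical.

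Tropomyosins are coiled-coil dimers that lie end to end along actin filaments and set which other proteins reach the filament. In striated muscle they hold the thin filament blocked until calcium binds troponin. Most tropomyosin of the rodent heart comes from Tpm1. Tpm3 gives a slow skeletal muscle form from an upstream start and shorter cytoskeletal forms from a downstream start, and rodent Tpm4 gives a short cytoskeletal form found in smooth muscle, fibroblasts and many other cells. Tpm1 and Tpm2, the other members of the family, were matched by 0 probes. The annotation does not say which transcript of Tpm3 the probe reads, and cross-hybridisation between tropomyosin transcripts was not tested.

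The sequence around the gene starts is shown because the scores of both genes correlated across arrays, as described further on, and because Tpm3 has starts of different kinds. RefSeq in the GRCr8 build lists 3 starts for Tpm3, the second 6482 bases after the first and the third 42 bases after the second, and 1 start for Tpm4. Each line gives 250 bases before and 50 after a start, 5′ to 3′ on the strand of the gene, which is chr2:177814633-177814932 on the plus strand for the upstream and chr2:177821115-177821414 on the plus strand for the downstream start of Tpm3, and chr16:17732434-17732733 on the minus strand for Tpm4. Capitals mark exact matches on either strand to the GC box GGGCGG and the E-box CANNTG.
Tpm3 upstream start: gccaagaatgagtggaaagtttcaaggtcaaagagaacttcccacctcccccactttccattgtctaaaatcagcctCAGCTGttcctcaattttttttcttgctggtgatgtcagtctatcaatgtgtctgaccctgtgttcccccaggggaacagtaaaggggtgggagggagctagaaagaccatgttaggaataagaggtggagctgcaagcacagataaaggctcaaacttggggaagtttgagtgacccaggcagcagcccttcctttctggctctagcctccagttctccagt
Tpm3 downstream start: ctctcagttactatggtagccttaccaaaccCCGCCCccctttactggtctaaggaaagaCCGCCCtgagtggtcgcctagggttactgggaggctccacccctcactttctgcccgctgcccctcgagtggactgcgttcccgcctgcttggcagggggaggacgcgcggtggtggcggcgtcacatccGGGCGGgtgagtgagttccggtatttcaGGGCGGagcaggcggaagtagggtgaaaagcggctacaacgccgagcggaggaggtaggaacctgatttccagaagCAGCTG
Tpm4 start: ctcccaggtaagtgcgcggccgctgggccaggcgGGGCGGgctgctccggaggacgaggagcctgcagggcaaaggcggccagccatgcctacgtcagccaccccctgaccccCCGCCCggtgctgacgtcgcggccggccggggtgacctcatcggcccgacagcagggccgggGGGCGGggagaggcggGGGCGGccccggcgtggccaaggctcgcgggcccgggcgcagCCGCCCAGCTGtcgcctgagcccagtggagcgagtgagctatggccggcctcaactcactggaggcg
The upstream Tpm3 window held 0 GC boxes and 1 E-box, with 49.0% G and C. The downstream Tpm3 window held 4 GC boxes and 1 E-box, with 62.3% G and C, and the Tpm4 window held 5 GC boxes and 1 E-box, with 77.0%. In Tpm4 the E-box overlaps the last GC box. Of 33469 RefSeq windows of this length, 33.1% held a GC box and 72.1% an E-box. Searched the same way on both strands, the MCAT core CATTCC (14.2% of all windows), the TATA box TATAAA (14.2%) and the CArG box of serum response factor (1.64%) matched none of the 3 windows. A match is a string of letters and not a bound site, and the array data do not tell which start was used.

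Each value is a score of 1 sample against the reference pool, standardised within its array by the authors as far as the values show, and centred here on the median of its array. Differences are therefore counted in array SDs, which cannot be read as log2 fold changes. The sources used here do not say whether a higher score means more RNA in the sample than in the pool. The lowest correlation between 2 arrays was -0.530, so the direction is not settled, and higher and lower refer to the scores as deposited. Comparisons of the groups are also given with the sign turned on 5 arrays, namely CHF right ventricle 10 and 14, CHF left ventricle 9 and CON left ventricle 21 and 22, each of which correlated below -0.3 with another array and was, of that pair, the less like the right ventricle arrays. That set was chosen after the correlations between arrays had been seen. HYP right ventricle array 4 was left as it was, with a median correlation of -0.0321 with the right ventricle arrays. That is below CHF right ventricle 10 (0.0824) and CON left ventricle 21 (0.0255), so doubt about the sign may not stop at these 5 arrays. If all arrays ran the other way, every difference below would change sign.

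Tpm3 scores in the right ventricle were lowest in CON, higher in HYP and highest in CHF by their medians. In CON they were between -3.32 and -1.48 with a median of -2.03, in HYP between -1.18 and 0.411 with a median of -0.363, and in CHF between 0.0860 and 1.13 with a median of 0.663. All 6 CHF and all 6 HYP arrays lay above the highest CON array, CON 21, while CHF and HYP overlapped because CHF 15, the lowest of its group, lay below HYP arrays 1 and 4. In the control right ventricles Tpm3 was among the lowest scores of the array, at a median percentile of 1.83, and in CHF it stood at a median percentile of 79.4. A percentile here is the share of the features of that array with a lower score against the pool, and says nothing of the abundance of one gene against another.

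Tpm4 scores followed the same order in the right ventricle with wider groups. They were between -2.96 and -1.09 in CON (median -1.84), between -1.35 and 0.835 in HYP (median -0.362) and between 0.147 and 1.77 in CHF (median 0.898). All CHF arrays lay above all CON arrays, and 5 of 6 HYP arrays did, the exception being HYP 8. The highest scores in CHF were those of arrays 10, at 1.77, and 14, at 1.63, the pair whose sign is in doubt. For Tpm3 these arrays were at 0.776 and 0.891, inside the range of the other CHF arrays.

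In the left ventricle, with 2 arrays for each condition, the order was another one. Tpm3 was at -2.69 and -2.53 in HYP, at -1.84 and -0.0740 in CHF and at -1.23 and -0.830 in CON. Both HYP arrays were below both arrays of the other conditions, and CHF and CON overlapped. How many of all features had such an order was not counted. Tpm4 was at -1.96 and -0.740 in HYP, at -0.140 and 0.588 in CHF and at 0.140 and 0.530 in CON, and again HYP was the low group. Over the 6 groups the mean Tpm3 score ran from CHF right ventricle (0.651 ± 0.365, SD, n = 6) through HYP right (-0.349 ± 0.673, n = 6), CHF left (-0.957 ± 1.25, n = 2), CON left (-1.03 ± 0.283, n = 2) and CON right (-2.25 ± 0.704, n = 6) to HYP left (-2.61 ± 0.107, n = 2). Neighbours in this order overlapped except CON left and CON right. For Tpm4 the order was CHF right (0.957 ± 0.697, n = 6), CON left (0.335 ± 0.276, n = 2), CHF left (0.224 ± 0.515, n = 2), HYP right (-0.281 ± 0.931, n = 6), HYP left (-1.35 ± 0.861, n = 2) and CON right (-1.94 ± 0.765, n = 6), and all neighbours overlapped. In tissue RNA, a change in the number of cells that hold a transcript and a change in its amount per cell cannot be told apart.

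**Figure D1:**
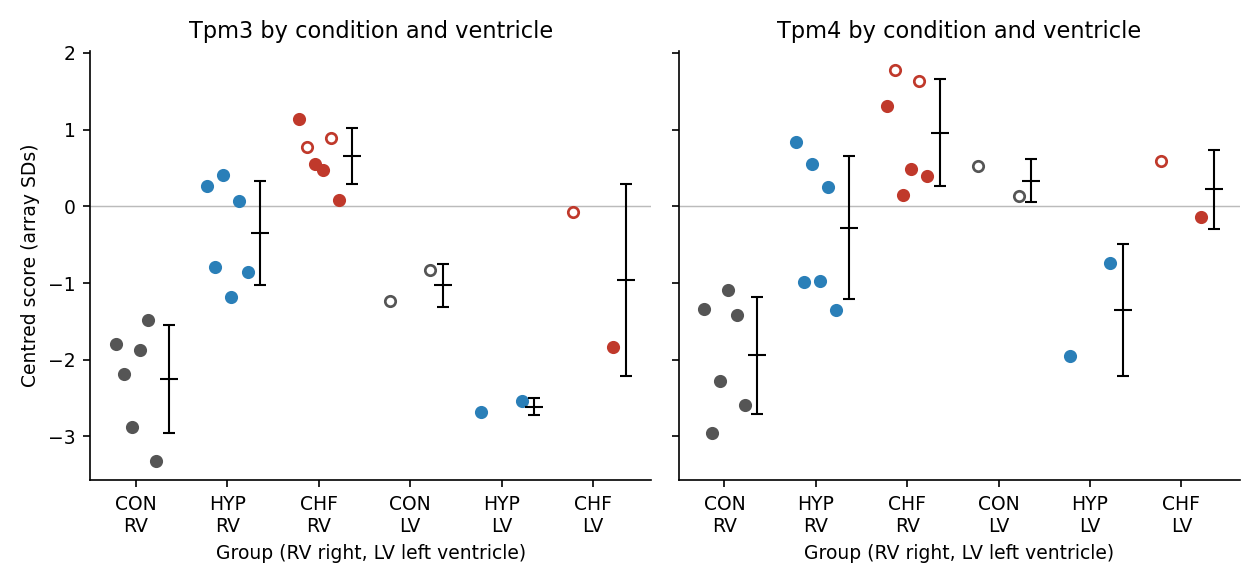
Centred scores (array SDs, vertical axis) of Tpm3 and Tpm4 on each of the 24 arrays by group (horizontal axis), with the group mean and SD as a bar beside the points and the 5 arrays of doubtful sign as open circles. The 6 CHF right ventricle arrays lie above the 6 CON right ventricle arrays in both panels, and the HYP left ventricle arrays are low in both.

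The first comparison, CHF against CON in the right ventricle, is the one by which the genes were chosen. Mean Tpm3 scores in CHF exceeded those in CON by 2.91 ± 0.348 array SDs (SE of the limma fit, n = 6 and 6) and Tpm4 scores by 2.90 ± 0.444 (n = 6 and 6). Among 3199 features tested, 0.907% passed in this comparison at an adjusted p below 0.05, and 1.34% of features with values on all 12 arrays had all CHF above all CON arrays. The choice of the genes used these values, so nothing is read from them here. By size of the difference Tpm3 and Tpm4 were at ranks 21 and 22 of 3199. Turning CHF arrays 10 and 14 gave a difference of 2.35 ± 0.405 for Tpm3 and 1.77 ± 0.537 for Tpm4, and leaving them out gave 2.81 ± 0.402 and 2.53 ± 0.478.

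Between hypertrophy and control, mean Tpm3 scores in the HYP right ventricle exceeded those in CON by 1.91 ± 0.348 (SE, n = 6 and 6, limma adjusted p = 0.0174). Tpm4 differed by 1.66 ± 0.444 (n = 6 and 6, limma adjusted p = 0.343) and did not pass. In this comparison 0.281% of 3199 features passed, all of them higher, and 0.708% of features with values on all 12 arrays had all HYP above all CON arrays. The CON arrays are those of the comparison that chose the genes, where they were low. The differences and p-values are therefore not independent of the choice, the p-values are too small by an unknown amount, and no rise is read from them. The adjusted p of Tpm3 was also above 0.05 with the sign turned, which widens the estimated spread (1.91 ± 0.405, adjusted p = 0.136), with the 2 groups fitted alone (1.91 ± 0.387, adjusted p = 0.148) and without HYP array 1, 4 or 6 or CON array 18, 19 or 22 (1.69 to 1.92, adjusted p = 0.0529 to 0.0666). The Tpm4 difference with the sign turned was 1.66 ± 0.537.

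The HYP right ventricle arrays were spread in the same way for both genes. HYP arrays 1, 4 and 6 were at 0.259, 0.411 and 0.0640 for Tpm3 and at 0.835, 0.547 and 0.246 for Tpm4, which is within or near the range of CHF. HYP arrays 3, 5 and 8 were at -0.790, -1.18 and -0.858 for Tpm3 and at -0.988, -0.969 and -1.35 for Tpm4. The split was not particular to the tropomyosins. The bradykinin B1 receptor gene Bdkrb1 was at 0.67, 0.21 and 0.051 on arrays 1, 4 and 6, and at -0.73, -0.96 and -0.90 on arrays 3, 5 and 8. The skeletal alpha-actin gene Acta1 was at 2.23, 1.16 and 0.474, and at 0.096, -0.697 and -0.56. How many of all features split this way was not counted. The labels give nothing that separates these arrays. HYP arrays 4 and 6 had the lowest median correlations of the HYP right arrays with the right ventricle arrays (-0.0321 and 0.208). They also had array medians below 0 before centring (-0.108 and -0.0990), while HYP array 1 was at 0.460 and 0.0585. Whether a technical difference lies behind the spread was not tested.

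Failing against hypertrophied right ventricle gave differences of 1.0 ± 0.348 for Tpm3 and 1.24 ± 0.444 for Tpm4 (SE, n = 6 and 6 each, limma adjusted p = 0.938 for both), which did not pass. The 95% intervals of the fit were 0.271 to 1.73 and 0.307 to 2.17. Limma called 0% of 3199 features here, with 4.94% at an unadjusted p below 0.05. The CHF arrays are those that chose the genes for being high, so these differences are not independent of the choice either. With the sign turned the differences were 0.444 ± 0.405 and 0.104 ± 0.537.

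**Figure D2:**
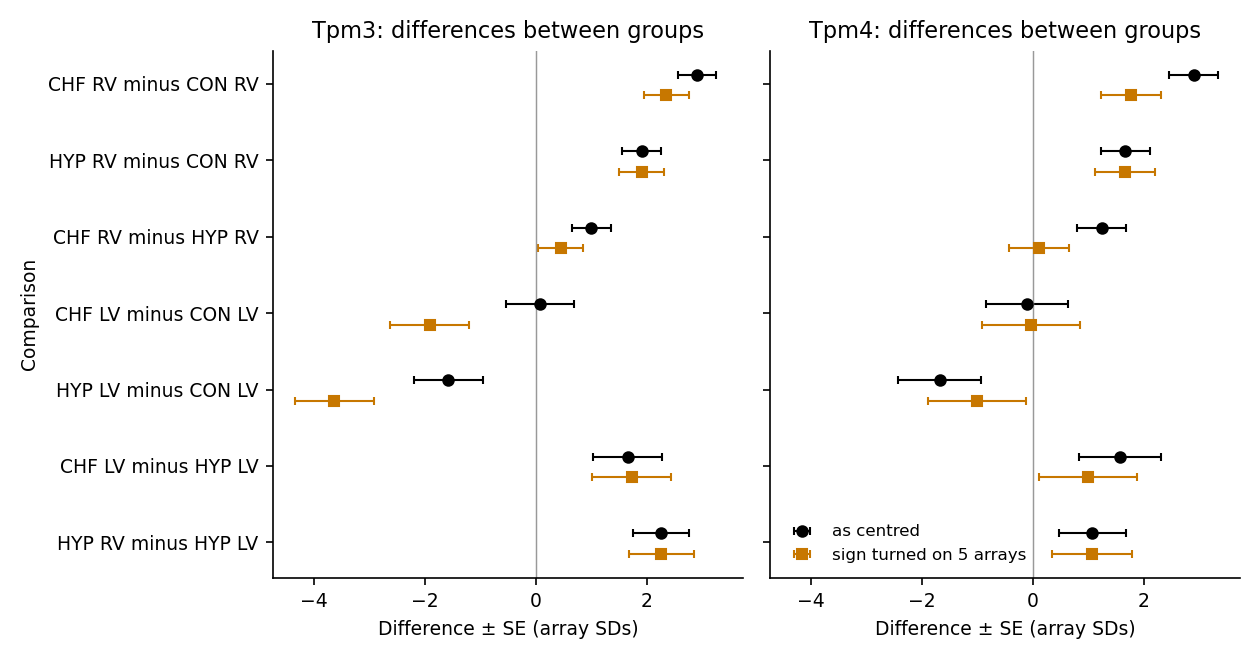
Differences between groups in array SDs (horizontal axis) with the SE of the limma fit for Tpm3 and Tpm4, for the 7 comparisons named on the vertical axis, as centred (black) and with the sign turned on 5 arrays (orange). The 3 right ventricle differences of each gene lie above 0 in both settings, while the Tpm3 difference of CHF and CON in the left ventricle goes from 0.0730 to -1.91.

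The left ventricle arrays had no part in the choice of the genes. For CHF 15 and both CON arrays the authors gave scores to 2 decimals, and for the other 21 arrays to 3. Whether these 3 arrays had been processed differently was not tested. For CHF against CON, Tpm3 differed by 0.0730 ± 0.616 and Tpm4 by -0.111 ± 0.742 (SE, n = 2 and 2, limma adjusted p = 0.9998 for both). The 95% intervals were -1.21 to 1.35 and -1.65 to 1.43. SEs, p-values and intervals of the left ventricle comparisons pool the spread of all groups, among them the right ventricle arrays that chose the genes. Only the mean differences in the left ventricle are therefore free of the choice. Of 2494 features 0% passed, with 0.882% at an unadjusted p below 0.05. The sign of these small differences was not stable. Tpm3 was at -1.91 ± 0.712 with the sign turned (adjusted p = 0.657), at -0.810 without CHF array 9 and at -0.127 without CON array 21. Tpm4 was at -0.0290 ± 0.883 with the sign turned, at 0.253 without CHF array 15 and at 0.0840 without CON array 21.

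HYP left ventricles had the lower scores for both genes. Against CON the difference was -1.58 ± 0.616 for Tpm3 and -1.68 ± 0.742 for Tpm4 (SE, n = 2 and 2, limma adjusted p = 0.996 for both, unadjusted p = 0.0178 and 0.0335), opposite to the right ventricle. Against HYP, CHF differed by 1.65 ± 0.616 for Tpm3 and by 1.57 ± 0.742 for Tpm4 (n = 2 and 2, limma adjusted p = 0.958 for both). None of these passed, and single arrays moved them. In CHF against HYP, Tpm3 was at 0.770 without CHF array 9 and at 2.54 without CHF array 15, and Tpm4 was at 0.964 without HYP array 3. In HYP against CON, Tpm4 was at -1.08 without HYP array 3. Limma called 0% of 2494 features in either comparison, while 1.84% and 3.01% were below 0.05 before adjustment. Once both CON left ventricle arrays were turned, Tpm3 passed in HYP against CON at -3.64 ± 0.712 (adjusted p = 0.0136), in a setting that called 96 features, and Tpm4 was at -1.01 ± 0.883. In CHF against HYP the turned values were 1.73 ± 0.712 and 0.985 ± 0.883. The 4 tested erythrocyte markers had a median difference of -4.49 in the same HYP against CON comparison, and the mean score of 3 of them was -6.55 on 1 HYP left array and 5.43 on the other. The part of blood content in the tropomyosin scores was not tested.

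A comparison of the ventricles whose mean difference is free of the choice is HYP right against HYP left. Its SE and limma p pool the spread of all groups, among them the CHF and CON right arrays that chose the genes. That SE and that limma p are therefore not independent of the choice. Tpm3 was higher in the right ventricle by 2.26 ± 0.503 (SE, n = 6 and 2, limma adjusted p = 0.0734), with all 6 right arrays above both left arrays, and Tpm4 by 1.07 ± 0.606 (n = 6 and 2, adjusted p = 0.662), with 3 of 6 above. Neither passed, and 0.0802% of 2494 features did, while 6.32% of features with values on these 8 arrays had all right above all left. The exact 2-sided permutation p was 0.0357 for Tpm3, the smallest that 28 splits allow, and 0.25 for Tpm4. Tpm3 passed among features with values on every array (2.26 ± 0.492, adjusted p = 0.0337, 10 of 1617 features passing) and without HYP right ventricle array 5 (2.43 ± 0.501, adjusted p = 0.0372, 6 of 2494 passing). It did not pass in the other settings run, at adjusted p = 0.0526 to 0.518, and with the sign turned, which leaves these arrays as they are, the adjusted p was 0.291. Tpm4 was at 0.460 without HYP left ventricle array 3 and at 1.68 without HYP left ventricle array 5. The 4 tested erythrocyte markers had a median difference of -3.27 in HYP right against left, with 0 above 0, against 52.0% of all features. Their mean score, over 3 of them, had a median of -4.10 on right and 4.25 on left arrays in CON, and of -2.97 and 2.72 in CHF. The part of blood content in the differences between ventricles was not tested. As a description, right minus left was 1.61 ± 0.503 for Tpm3 and 0.733 ± 0.606 for Tpm4 in CHF, and -1.22 ± 0.503 and -2.28 ± 0.606 in CON (n = 6 and 2 each). The turned values were 0.978 ± 0.581 and 0.188 ± 0.721 in CHF, and -3.28 ± 0.581 and -1.61 ± 0.721 in CON. Mean scores of both genes were therefore lower in the right than in the left ventricle in CON and higher in CHF in both settings. The turned Tpm4 difference in CHF was smaller than its SE. The CHF and CON right arrays chose the genes, so these directions are not independent of the choice. The HYP against CON difference was larger in the right than in the left ventricle by 3.48 ± 0.712 for Tpm3 and 3.35 ± 0.857 for Tpm4 (SE, n = 6, 6, 2 and 2, limma adjusted p = 0.0644 and 0.192). Neither passed, as 0% of 2494 features did, with 2.49% below 0.05 before adjustment. The Tpm3 difference did pass among features with values on every array (adjusted p = 0.0288), with the sign turned (5.54 ± 0.822, adjusted p = 0.00176) and without HYP right array 5 or CON right array 21 (adjusted p = 0.0271 and 0.0345), and the turned Tpm4 difference was 2.68 ± 1.02. In these settings 7 of 1617, 33 of 2494, 4 of 2494 and 8 of 2493 features passed. With the sign turned 499 features were below 0.05 before adjustment. The CON right arrays in this difference had a part in choosing the genes.

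All 6 left ventricle arrays carry a number that also labels a right ventricle array of the same condition. Right minus left was 1.90 and 1.35 for Tpm3 at HYP numbers 3 and 5, 1.21 and 1.93 at CHF numbers 9 and 15, and -0.253 and -2.49 at CON numbers 21 and 22. For Tpm4 it was 0.969 and -0.229 in HYP, 0.725 and 0.539 in CHF, and -1.94 and -2.73 in CON. Both CON numbers were thus lower on the right for both genes and both CHF numbers higher, and HYP 5 was the number at which the genes differed in sign. How many of all features went 1 way at both numbers of a condition was not counted, so nothing is read from these directions. The CON and CHF right arrays at these numbers are among those that chose the genes, so the CON and CHF directions are not independent of the choice. Once the doubtful arrays were turned, the Tpm3 values were 1.06 at CHF 9, -2.71 at CON 21 and -4.15 at CON 22, the Tpm4 values were 1.90, -0.881 and -2.45, and the other numbers were as before. That the same number means the same animal is not stated.

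**Figure D3:**
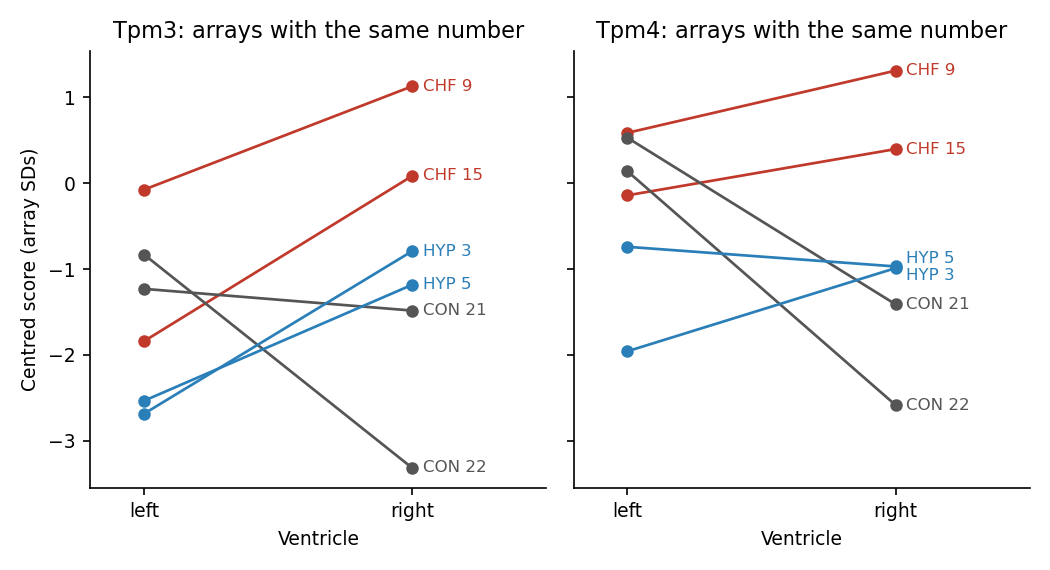
Centred scores (array SDs, vertical axis) of Tpm3 and Tpm4 on left and right ventricle arrays of the same condition and number, joined by a line and labelled at the right. CON lines fall from left to right in both panels, from -0.830 to -3.32 for Tpm3 at number 22, and CHF lines rise, from -1.84 to 0.0860 at number 15. The CON and CHF right arrays are among those that chose the genes.

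Within each right ventricle group the correlation of Tpm3 and Tpm4, a measure that the choice of the genes did not use, was positive but did not pass. Pearson's r was 0.944 in HYP (exact permutation p = 0.0472, Benjamini-Hochberg adjusted p = 0.142 over 3 relations, n = 6), 0.720 in CHF (exact p = 0.106, adjusted p = 0.158) and 0.682 in CON (exact p = 0.167, adjusted p = 0.167). Spearman's rho was 0.771, 0.600 and 0.600 (exact p = 0.103, 0.242 and 0.242, adjusted p = 0.242 for each). Without the 2 arrays farthest from the median of Tpm3, r was 0.990, 0.894 and 0.726 over 4 arrays. Values of 1 array share its hybridisation, its scaling and its centring.

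As a description over all arrays, the deviations of Tpm3 and Tpm4 from their group means correlated at 0.730 (24 arrays), against a median of -0.0384 between Tpm3 and 2550 features with values on at least 20 arrays. Other genes were closer to each tropomyosin than the tropomyosins were to each other. Bdkrb1, the bradykinin B1 receptor gene, had r = 0.972 with Tpm3 over the 24 centred scores and 0.946 over the deviations. Next for Tpm3 came Safb, which encodes a nuclear matrix and RNA binding protein (0.965 and 0.854), Acta2, the smooth muscle actin (0.962 and 0.828), Capn3, a muscle calpain (0.961 and 0.815), and Ocm, a calcium-binding parvalbumin relative (0.956 and 0.790). All 5 also had higher mean scores in the CHF than in the CON right ventricle (Bdkrb1 0.614 against -1.81), so that the correlation of scores partly restates the choice. Tpm4 was at rank 10 among 2269 named genes by likeness to Tpm3 over scores and at rank 8 over deviations.

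The genes most like Tpm4 were largely others. Fgb, the fibrinogen beta chain, had r = 0.968 over scores and 0.914 over deviations, followed over scores by Bdkrb1 (0.928), the monoamine oxidase gene Maoa (0.916), the muscle caveolin gene Cav3 (0.874) and Tpm3 (0.872). Over deviations the adenylyl cyclase gene Adcy8 (0.888, 23 arrays), Bdkrb1 (0.818), the Golgi glycoprotein gene Glg1 (0.792, 20 arrays) and the prion protein gene Prnp (0.791) came after Fgb. On CHF right arrays 10 and 14, of doubtful sign, the deviations were 0.82 and 0.67 for Tpm4 and 2.16 and 2.27 for Adcy8. They were 0.87 and 1.52 for Glg1, 1.49 and 1.80 for Prnp, 0.35 and 0.30 for Fgb and 0.15 and 0.23 for Bdkrb1. Correlations with either tropomyosin were not run with the sign turned or without these arrays. Bdkrb1 is the gene found for both tropomyosins in both measures. Where a gene had several probes, they did not all resemble the tropomyosins. The 3 Acta2 probes had r = 0.960, 0.229 and 0.323 with Tpm3, and the 2 Fgb probes had r = 0.916 and 0.629 with Tpm4.

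**Figure D4:**
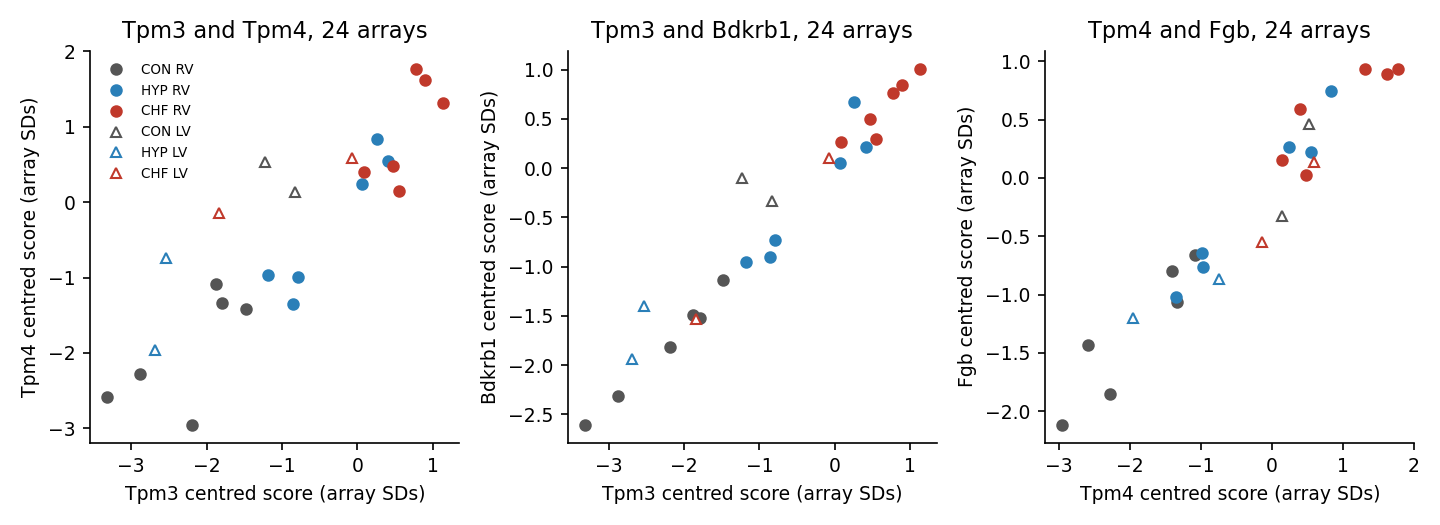
Centred scores (array SDs on both axes) of Tpm3 against Tpm4, Tpm3 against Bdkrb1 and Tpm4 against Fgb on 24 arrays, with right ventricles as filled circles and left ventricles as open triangles. Points lie closest to a line for Tpm3 and Bdkrb1 (r = 0.972) and for Tpm4 and Fgb (r = 0.968). For Tpm3 and Tpm4 (r = 0.872) some left ventricle arrays, among them both CON arrays, lie off the right ventricle trend.

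No gene of the cardiac thin filament list, which holds neither Tpm3 nor Tpm4, passed where it could be tested. Of 10 listed cardiac thin filament genes 3 were tested with limma, and 0 passed in CHF or in HYP against CON in the right ventricle (0.907% and 0.281% of all features), where Tmod1 in CHF had an unadjusted p of 0.0113. Tmod1, the tropomodulin that caps the pointed end and binds tropomyosin there, differed by 1.02 ± 0.362 in CHF (SE, n = 6 and 6, limma adjusted p = 0.325) and by 0.749 ± 0.362 in HYP (adjusted p = 0.9997). Tnnt2, the cardiac troponin that ties the complex to tropomyosin, differed by -0.945 ± 0.547 in CHF (adjusted p = 0.658) and by -0.249 ± 0.547 in HYP (adjusted p = 0.9997). Tnni3, the inhibitory cardiac troponin, differed by -0.779 ± 0.589 in CHF (adjusted p = 0.742) and by -0.166 ± 0.589 in HYP (adjusted p = 0.9997). The medians of the 3 genes were -0.779 and -0.166, against -0.0992 and -0.0456 over all 3199 features.

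Among 12 listed skeletal and fetal sarcomere isoforms 7 were tested, and 1 rose, Acta1, the skeletal alpha-actin, where 0.907% of all features passed in CHF and 0.281% in HYP. Acta1 was higher by 4.35 ± 0.573 in CHF and by 3.11 ± 0.573 in HYP against CON (SE, n = 6 and 6, limma adjusted p = 0.000157 and 0.0174). With the sign turned it was at 3.31 and 3.11 and passed in neither (adjusted p = 0.0849 and 0.292). Without the doubtful CHF arrays Acta1 was at 4.42 in CHF against CON (limma adjusted p = 0.00197), where 18 of 3017 features passed. The slow skeletal troponin Tnni1, which accompanies the slow form of Tpm3 in skeletal muscle, differed by -0.420 ± 0.260 in CHF and by -0.252 ± 0.260 in HYP (adjusted p = 0.684 and 0.9997). The fast skeletal troponins Tnni2, Tnnc2 and Tnnt3 differed in CHF by 0.777, -0.753 and 0.672 (adjusted p = 0.281, 0.525 and 0.736). The embryonic myosin gene Myh3 was at -0.183 and the atrial light chain gene Myl4 at -0.280 (adjusted p = 0.917 and 0.825). The list had a median of -0.183 in CHF and -0.152 in HYP, with 3 of 7 differences above 0 in each, against 41.2% and 43.9% of all features.

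**Figure D5:**
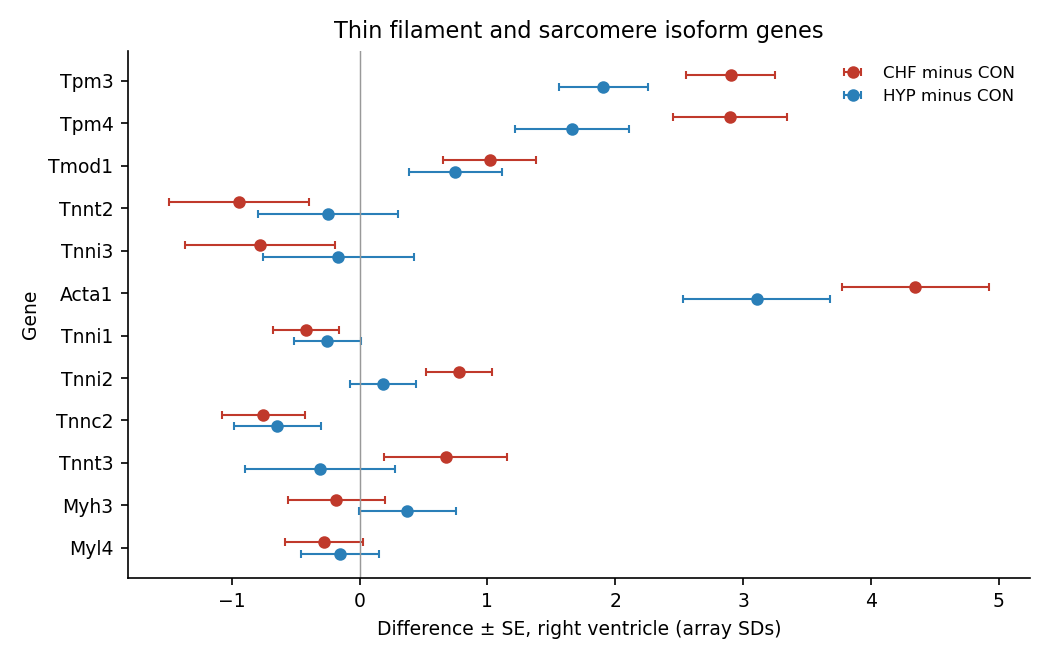
Differences from CON in the right ventricle in array SDs (horizontal axis) with the SE of the limma fit for the tropomyosins and the tested thin filament and sarcomere isoform genes (vertical axis), for CHF (red) and HYP (blue). Tpm3, Tpm4 and Acta1 lie to the right, at 2.91, 2.90 and 4.35 in CHF, and the other genes lie between -0.945 and 1.02 in CHF.

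Of 88 listed genes of the actin cytoskeleton, in whose filaments the short tropomyosins lie, 43 were tested. In CHF against CON 2 rose and 0 fell, with 28 of 43 differences above 0 and a median of 0.199, against 0.907% passing, 41.2% above 0 and a median of -0.0992 over all features. The 2 were Acta2, at 1.58 ± 0.252 (SE, n = 6 and 6, limma adjusted p = 0.00132), and the actin-severing cofilin gene Cfl1, at 5.92 ± 1.18 (n = 2 and 4, adjusted p = 0.0474). The Acta2 score is a mean of 3 probes that did not resemble each other in their correlation with Tpm3 (r = 0.960, 0.229 and 0.323), and the single probes were not tested. The CHF values of Cfl1 came from arrays 10 and 14. With the sign turned on these arrays Acta2 was at 1.25 (adjusted p = 0.0849) and Cfl1 at -3.58 (adjusted p = 0.331), and neither passed. Without these arrays Acta2 was at 1.55 (limma adjusted p = 0.0127), where 18 of 3017 features passed, and Cfl1 had no CHF value left. In HYP against CON 0 of 43 passed, with 28 above 0 and a median of 0.0960, against 0.281% passing, 43.9% above 0 and a median of -0.0456 over all features.

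Marker lists of cells that could carry these tropomyosins were read from the same fits, in which 0.907% of all features passed in CHF against CON. In CHF against CON 1 of 6 smooth muscle and pericyte markers rose (Acta2, median of the list 0.335), 1 of 5 skeletal muscle markers (the calcium buffer gene Pvalb, at 1.18 ± 0.243, limma adjusted p = 0.0195, median 0.672), 0 of 9 cardiomyocyte markers (median 0.0225), 0 of 6 fibroblast markers (median -0.354), 0 of 3 macrophage markers (median 0.198), 0 of 4 erythrocyte markers (median 0.990) and 0 of 3 atrial markers (median -0.0622). Acta2 is here the same mean of probes that differed. Within the lists the members did not go one way. Of the smooth muscle markers Myh11 was at -0.117 and Pdgfrb at -0.134 (adjusted p = 0.934 and 0.929), and of the skeletal muscle markers Myh1 was at -0.470 and Atp2a1 at -0.00367 (adjusted p = 0.602 and 0.997). Of the 5 endothelial markers on the array 3 had values and 0 could be tested. The mean score of 4 skeletal muscle markers lay between 0.0885 and 0.319 on CHF and between -0.465 and 0.00125 on CON right ventricle arrays, and that of 3 smooth muscle markers between 0.0913 and 0.950 and between -0.742 and 0.163. Of the 4 skeletal muscle markers Pvalb and Tnni2 were above 0 in CHF against CON (1.18 and 0.777), and Myh1 and Atp2a1 were not. How often other sets of 4 genes separate CHF from CON was not counted, so no rise of skeletal muscle is read from these ranges. For 7 cardiomyocyte markers it lay between -2.03 and 1.47 on CHF and between -0.703 and 1.08 on CON arrays, and for 5 fibroblast markers between -0.322 and 0.935 and between 0.298 and 1.25. With the sign turned Pvalb was at 0.608 (adjusted p = 0.523), and without the doubtful CHF arrays at 1.14 (adjusted p = 0.110). The part of these cell types in the tropomyosin scores was not tested. A score against a pool does not show whether a marker is present, so the labelled tissue could not be checked by absence of markers.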

How the data were processed

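The authors deposited 1 score per probe and array, a value of the sample against the reference pool. The sources used here do not give their scale, dye direction, background correction or normalization. Array means (-0.0345 to 0.0713) and SDs (0.870 to 1.01) were read as standardisation within each array, array medians were -0.20 to 0.217, and 2162 to 3658 of 4803 probes had a value. The number of arrays limits the precision. The platform annotation gave 1 symbol for 4278 probes, several for 4 and none for 521. Scores were centred on the median of their array, and probes of 1 symbol were averaged, giving 4651 features. Comparisons were fitted in R 4.3.3 with the lmFit and eBayes functions of limma 3.58.1, and p-values were adjusted by Benjamini-Hochberg over every feature that had at least 2 values in each group. Right ventricle comparisons were fitted on 18 arrays and all others on 24 arrays in 6 groups, so that left ventricle groups were assumed to vary like the others. Fits were tested on simulated data. Named genes were both tropomyosins, the tested members of the thin filament and sarcomere lists, called members of the actin cytoskeleton list, and the 5 named genes most correlated with each tropomyosin over at least 20 arrays, and Pvalb was named after its values were seen. The genes and lists were chosen with earlier results of these data known. Alternatives were the centring, the scale, the sign of 5 arrays, array weights, missing values, the arrays fitted, each array left out, the replicate block and exact permutation tests. Leaving out the doubtful CHF arrays together, and the test of HYP against CON between ventricles, were added after seeing the data.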

Additional observations from a re-analysis of the deposited data

Results flagged for a closer look

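The HYP against CON difference of Tpm3 went in opposite directions in the ventricles. In the right ventricle all 6 HYP arrays were above all 6 CON arrays, and in the left ventricle both HYP arrays were below both CON arrays. The limma estimate of right minus left was 3.48 ± 0.712 (SE, in array SDs, n = 6, 6, 2 and 2) with an adjusted p of 0.0644, so the test of the difference itself did not pass in the fit of all 24 arrays as centred, and 0% of 2494 features passed, with 2.49% at an unadjusted p below 0.05. It did pass with values on every array (adjusted p = 0.0288), where 7 of 1617 features passed. It also passed with the sign turned (5.54, adjusted p = 0.00176), where 33 of 2494 features passed and 499 were below 0.05 before adjustment. For Tpm4 the same difference was 3.35 ± 0.857 (adjusted p = 0.192). The CON right ventricle arrays in this difference are among those that chose the genes.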

How the results depend on the processing

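The right ventricle differences of Tpm3 and Tpm4 kept their direction in every setting run. Single probes were not run because each gene has 1 probe. The limits are the unknown scale and dye direction, the 2 left ventricle arrays per condition and the choice of the genes on the CHF against CON contrast. The causes of the shifts below were not tested. With the sign turned on 5 arrays, Tpm3 was at 1.91 (adjusted p = 0.136) in HYP against CON right, at -1.91 in CHF against CON left, at -3.64 in HYP against CON left and at 5.54 (adjusted p = 0.00176) in the right minus left difference of HYP against CON, and Tpm4 was at 1.77 in CHF against CON right. With the 2 groups alone Tpm3 in HYP against CON right was 1.91 (adjusted p = 0.148), and without the doubtful CHF arrays CHF against CON left was -0.81. With values on every array, Tpm3 passed in HYP right against left (2.26, adjusted p = 0.0337) and in the right minus left difference (3.48, adjusted p = 0.0288). The exact permutation p of a single gene has no adjustment over features and is no gain over limma, whose unadjusted p was also below 0.05 in each of these. It was below 0.05 for Tpm3 in HYP against CON right (1.91), CHF against HYP right (1.0) and HYP right against left (2.26), and for Tpm4 in HYP against CON right (1.66) and CHF against HYP right (1.24), and all but HYP right against left use arrays that chose the genes.

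Features called numbered 29 in CHF against CON right, 18 without the doubtful CHF arrays and 9 with the sign turned. They numbered 9 in HYP against CON right, 0 with the 2 groups alone (139 of 3451 at an unadjusted limma p below 0.05) and 1 with the sign turned. In CHF against HYP right they were 0, and 1 with array weights or the sign turned. In HYP against CON left they were 0, and 96 with the sign turned. In HYP right against left they were 2, then 1 with array weights, with no centring and with a fixed replicate block, 5 with a random replicate block, 0 with the sign turned and 10 with values on every array. In the right minus left difference they were 0, then 6 with the random replicate block, 33 with the sign turned and 7 with values on every array.

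The replicate number was tried as a block, although same-numbered arrays deviated together at r over 0.1 in 3 of 6 pairs and 2 of 6 left arrays correlated best with their own number, so the arrays may share only a number. With a random replicate block Tpm3 in HYP right against left was 2.11 (limma adjusted p = 0.0534) and in the right minus left difference 3.37 (adjusted p = 0.0446), and with a fixed block on 12 arrays the first was 1.62 (adjusted p = 0.133). Tpm4 was 0.907 and 0.370 in HYP right against left.

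Leaving out 1 array at a time moved Tpm3 between 2.69 and 3.06 in CHF against CON right, 1.69 and 2.07 in HYP against CON right, 0.833 and 1.15 in CHF against HYP right, -0.81 and 0.956 in CHF against CON left (including -0.127), -1.78 and -1.38 in HYP against CON left, 0.770 and 2.54 in CHF against HYP left, 2.11 and 2.43 in HYP right against left, and 3.27 and 3.68 in the right minus left difference. The last passed without HYP right array 5 (adjusted p = 0.0271) or CON right array 21 (adjusted p = 0.0345). Tpm4 moved between 2.70 and 3.07, 1.44 and 1.88, 1.02 and 1.46, -0.475 and 0.253 (including 0.0840), -2.29 and -1.08, 0.964 and 2.18, 0.460 and 1.68, and 2.74 and 3.95 in the same order. Features called ranged from 16 to 38 in CHF against CON right, 3 to 9 in HYP against CON right, 0 to 1 in CHF against HYP right, 0 to 0 in CHF against CON left, 0 to 4 in HYP against CON left, 0 to 5 in CHF against HYP left, 1 to 7 in HYP right against left and 0 to 8 in the right minus left difference.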
